A study of Mus musculus with 15 samples.

Results

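The genes described here encode subunits of the mitochondrial respiratory chain, the 5 enzyme complexes of the inner mitochondrial membrane. They were taken by symbol, as genes on the array whose name begins with Ndufa, Ndufb, Ndufc, Ndufs, Ndufv, Uqcr or Atp5, or is Cox4 to Cox8 followed by a letter, with Sdhb, Sdhc, Sdhd and Cyc1, and without the assembly factors named Ndufaf and 1 other gene, which was not analysed here. This gave 82 genes of the 17178 gene symbols on the array. Ndufs1, a core subunit of complex I, had 1 probe, whose spot was marked as non-uniform on 1 array, and was left out. Of the other 81 genes, 79 were well above background on at least 3 arrays and were tested. The remaining pair, Cox4i2 and Cox8c, isoforms of complex IV subunits, were not well above background on any array.

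Complex I, named NADH dehydrogenase, and complex II, named succinate dehydrogenase, feed electrons into the chain. Complex III passes them to cytochrome c and complex IV hands them to oxygen, and the protons pumped on the way drive complex V, the ATP synthase. Neurons of the cerebellum rely on this chain for most of their ATP, and several complex IV and V subunits come as paralogs that differ in the tissues that use them. The genes considered here are nuclear, and the subunits encoded by mitochondrial DNA are not among them.

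RNA of 15 mouse samples had been hybridised to 1 one-colour Agilent array each. Medulloblastomas, which arise in the cerebellum, came from mice of C3B6F1 background heterozygous for Ptch1 (Ptch1+/-), the gene of the receptor that restrains sonic hedgehog signalling, irradiated with X-rays on postnatal day 1 where a dose is given and then followed until moribund. They fell into R-type tumours after 1.5 Gy (MB10 to MB12), R-type tumours after 0.2 Gy (MB7 to MB9), S-type tumours after 0.2 Gy (MB4 to MB6) and S-type tumours after 0 Gy (MB1 to MB3), with normal cerebellum as the fifth group, and n = 3 in each. The normal cerebella had a dose of 0 Gy. What the letters R and S stand for is not in the labels, and neither are the genotype and strain behind the normal cerebella. Age at sampling, given without a unit, spanned 87 to 127 in R-type tumours, 128 to 173 in S-type tumours and 103 to 113 in normal cerebella, so that type, age and, in part, dose cannot be told apart. MB6 was male and the other mice were female.

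Between 24288 and 27318 of 41098 probes were well above background on an array. The number of arrays limits the precision of every comparison, and p-values reflect the spread among the animals sampled. Every level below is a log2 signal relative to the 75th percentile of its array, and every change is a difference of such levels. Levels of different genes come from different probes and are not set against each other.

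Most respiratory chain genes were lower in the 12 tumours than in the 3 normal cerebella. Of the 79 tested, 58 were lower (73.4%) and 5 were higher (6.33%) at an adjusted p under 0.05, and 16 were not called. Over all 21661 tested names, 35.4% were lower and 43.5% were higher. The median change of the 79 genes was −0.40, against 0.14 over all tested names. For 51 of them (64.6%) every tumour lay below every normal cerebellum, which held for 29.3% of all tested names. For 4 (5.06%) every tumour lay above, against 36.4%. The changes were small beside their number: apart from Ndufs7, Cox8a, Cox7a1, Cox7b2, Cox8b and Cox6a2, every change lay between −0.88 and 0.55.

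**Figure D1:**
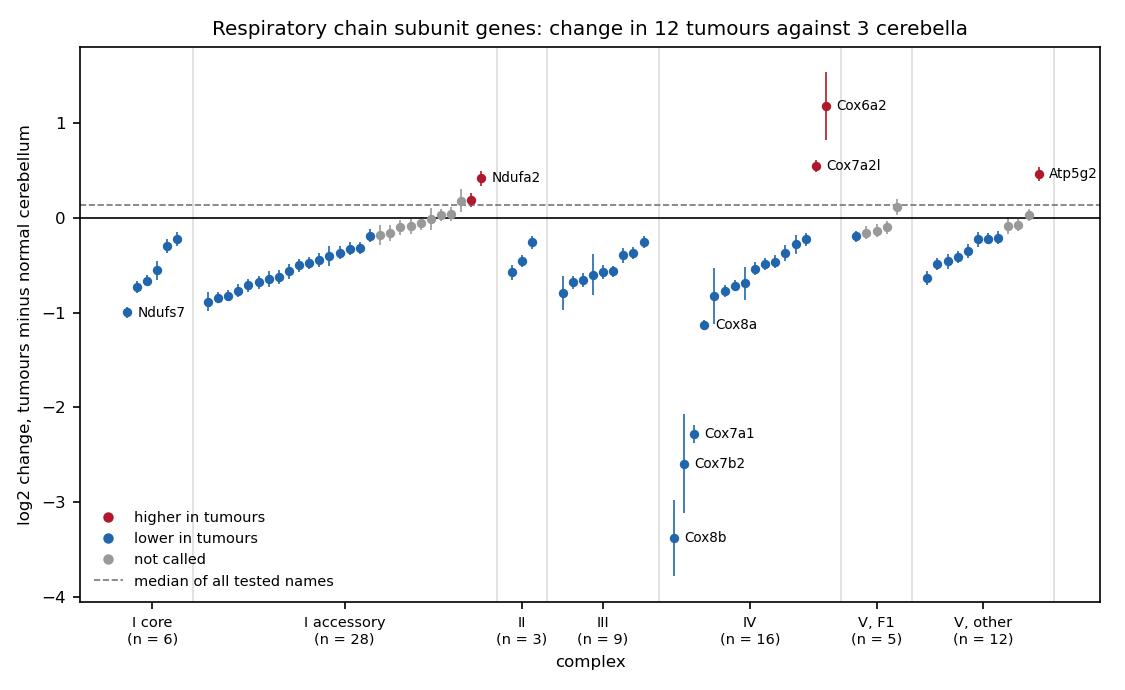
Log2 change in 12 tumours against 3 normal cerebella for each of the 79 tested genes, grouped by complex and ordered by change, with bars of 1 SE. Blue points are genes called lower, red points genes called higher and grey points genes not called, and the dashed line marks the median of all tested names, 0.14. Most points lie below 0 in every group, and in the F1 part of complex V 4 of 5 are grey.

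The tissues compared differed in cell makeup as well. All 10 listed genes of mature granule neurons were lower in tumours, with a summed linear signal, relative to the 75th percentile, of 29.3 to 51.0 in tumours and 309.5 to 346.3 in normal cerebella. All 9 tested Purkinje cell genes were lower (sums of 5.92 to 10.4 against 371.8 to 398.2), and so were all 7 interneuron genes (0.217 to 0.961 against 100.3 to 110.0), with Slc6a5 not well above background in any tumour. All 10 genes of granule neuron precursors and dividing cells were higher (235.4 to 339.0 against 2.85 to 3.4), with Atoh1, Top2a and Aurkb not well above background in any normal cerebellum. Astrocyte and Bergmann glia genes were lower in 7 of 8 cases (14.0 to 41.6 against 245.8 to 273.7), oligodendrocyte genes in 7 of 8 (8.54 to 12.6 against 63.5 to 99.8), and microglia and macrophage genes were higher in 7 of 7 (21.4 to 39.2 against 3.67 to 4.86). Blood genes were lower in 3 of 3 (1.22 to 9.78 against 20.5 to 42.1), whereas endothelial and pericyte genes were split, with 3 of 8 higher and 2 lower (11.5 to 23.1 against 16.0 to 18.5). The part of this shift in the levels of respiratory chain genes was not tested, and in bulk tissue fewer cells of a type and less RNA per cell cannot be told apart.

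Complex I was lower in 23 of its 34 tested genes and higher in 2. All 6 tested core genes, which encode the subunits that carry out electron transfer, were lower, with a median change of −0.61. Ndufs7 encodes the subunit with the iron-sulfur cluster that passes electrons to ubiquinone. Its level was 3.57 at the lowest, 3.68 at the median and 3.83 at the highest tumour, and 4.66, 4.71 and 4.66 in the normal cerebella. No tumour came near a normal cerebellum, and the change was −1.0 (SE 0.059, adjusted p 9.25e-09 in limma), a signal 2.00-fold lower in tumours. Ndufv1, which binds NADH, was lower by a log2 change of −0.73 (SE 0.059, adjusted p 1.81e-07), at 4.30 ± 0.10 in tumours and 5.03 ± 0.06 in normal cerebella (SD, n = 12 and n = 3).

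Among the 28 accessory genes of complex I, which surround the core, 17 were lower and 2 higher, with a median change of −0.35. Ndufv3, of the module that oxidises NADH, had levels of 2.06, 2.41 and 2.71 at the lowest, median and highest tumour, against 3.23, 3.26 and 3.30 in normal cerebella. The groups did not overlap, and the change was −0.88 (SE 0.096, adjusted p 2.82e-06). Ndufa6 (−0.84, SE 0.059) and Ndufa13 (−0.82, SE 0.059), accessory subunits found in most eukaryotes, followed. Ndufa2 went the other way, at 4.31, 4.53 and 4.69 in the lowest, median and highest tumour and 4.07, 4.13 and 4.11 in normal cerebella, a change of 0.42 (SE 0.079, adjusted p 0.000366). Ndufa12 was called higher (0.19, SE 0.075, adjusted p 0.0347), but its values overlapped between tumours and normal cerebella. Leaving out normal cerebellum 1, 2 or 3, MB4, MB9 or MB11 ended that call (adjusted p 0.051 to 0.121), and quantile normalization turned the change to −0.05. Ndufa4, named for complex I though its product is now counted with complex IV, was at 5.52 ± 0.21 in tumours and 5.54 ± 0.07 in normal cerebella (SD, n = 12 and n = 3), and it was not called, though it was called lower with quantile normalization, alone or after normexp (−0.53 and adjusted p 8.8e-05 after normexp).

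All 3 genes of complex II taken here, which leave out Sdha, were lower. Sdhb, its iron-sulfur subunit, was at 3.20, 3.46 and 3.61 in the lowest, median and highest tumour, against 4.02, 4.07 and 4.0 in normal cerebella, and changed by −0.57 (SE 0.078, adjusted p 2.15e-05). Sdhc and Sdhd, which anchor the complex in the membrane, changed by −0.45 (SE 0.060) and −0.26 (SE 0.068, a call lost with median scaling at adjusted p 0.0903). For each of the 3 genes every tumour lay below every normal cerebellum.

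All 9 genes of complex III were lower, with a median change of −0.57. Uqcrc1 and Uqcrc2 encode the large core subunits, and they changed by −0.66 (SE 0.074) and −0.68 (SE 0.069, adjusted p 1.55e-06). Uqcrc2 was at 4.29, 4.39 and 4.63 in the lowest, median and highest tumour and at 5.08, 5.12 and 5.10 in normal cerebella, without overlap. Uqcrb, a small subunit near the ubiquinone site, had the largest mean change of the complex, −0.80 (SE 0.181, adjusted p 0.00146), and a wide range in tumours, 1.71 to 3.06, against 3.13, 3.22 and 3.23. Uqcrfs1, the Rieske iron-sulfur protein, also ranged widely, from 2.81 to 3.97, against 4.12, 4.11 and 4.16. Which tumours were low in these genes is given with the genes of chromosome 13.

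Complex IV, cytochrome c oxidase, held the largest changes in both directions: of 16 tested genes, 14 were lower and 2 higher. Cox7a1, the heart and muscle form of subunit 7a, was at −1.02, −0.64 and −0.11 in the lowest, median and highest tumour and at 1.71, 1.73 and 1.64 in normal cerebella. The gap between the groups exceeded the whole spread of the tumours, and the change was −2.28 (SE 0.095, adjusted p 4.55e-10), or 4.87-fold lower. Cox7a2, the form of subunit 7a found in most tissues, changed by −0.23 (SE 0.071, adjusted p 0.011) with overlapping groups, a call that was lost without normal cerebellum 3 (adjusted p 0.0621). Cox7a2l, a relative of both that is known for its part in joining complexes III and IV into supercomplexes, was at 3.55, 3.72 and 3.94 in the lowest, median and highest tumour, against 3.10, 3.21 and 3.16. Every tumour lay above every normal cerebellum, with a change of 0.55 (SE 0.067, adjusted p 8.26e-06).

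Other paralogs of complex IV also differed among themselves. Cox8a, the form of subunit 8 found in most tissues, was at 5.26, 5.37 and 5.50 in the lowest, median and highest tumour and at 6.46, 6.5 and 6.56 in normal cerebella, a change of −1.13 (SE 0.055, adjusted p 1.73e-09), or 2.19-fold lower. Its muscle form, Cox8b, lay between −8.13 and −4.74 in tumours, where it was well above background in 2 of 12, and at −3.84, −2.62 and −3.19 in normal cerebella. Cox7b2, a form of subunit 7b known from testis, was likewise well above background in 2 of 12 tumours and in all 3 normal cerebella, and was called lower. Both genes met the filter of 3 arrays only with the normal cerebella, where they were high, so their calls are not independent of it. They are counted among the 14 genes of complex IV, and the 58 of all complexes, called lower, and the 51 without overlap. No size is given for these 2 genes, since most tumour values have only an upper bound. Cox7b, the common form, changed by −0.37 (SE 0.083). Cox6a2, the muscle form of subunit 6a, was higher by 1.18 (SE 0.360, adjusted p 0.00955), at −4.21, −3.84 and −2.52 in the lowest, median and highest tumour against −5.24, −4.58 and −4.59. Its groups did not overlap, but without normal cerebellum 1 the call was lost (adjusted p 0.0614). Cox6a1, the common form, was lower (−0.49, SE 0.063), and Cox4i1, the common form of subunit 4, changed by −0.72 (SE 0.059, adjusted p 2.28e-07). Both forms of subunit 6b, Cox6b1 (−0.28, SE 0.099, lost without normal cerebellum 2 or 3 at adjusted p 0.08 and 0.074) and the testis form Cox6b2 (−0.69, SE 0.171), were called lower. Listed skeletal muscle genes, given here because 3 of these isoforms are muscle forms, had sums of 0.350 to 0.527 in tumours and 0.294 to 0.330 in normal cerebella, with Myh1 and Myh4 not well above background on any array.

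**Figure D2:**
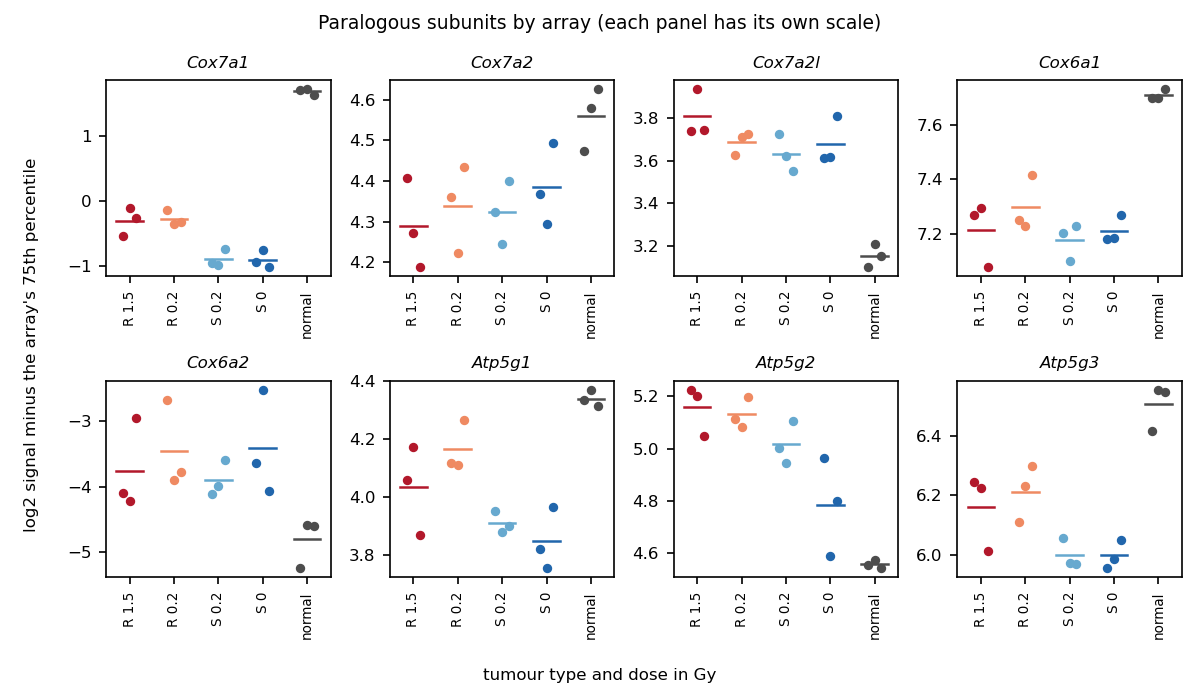
Level of 8 paralogous genes on each array, as log2 signal minus the 75th percentile of the array, by tumour type and dose, with a bar at the mean of 3 arrays and a separate scale in each panel. Cox7a1, Cox6a1, Atp5g1 and Atp5g3 lie lower in all 12 tumours than in the 3 normal cerebella, whereas Cox7a2l, Cox6a2 and Atp5g2 lie higher.

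Complex V had the smallest median change of the 5 complexes, −0.19. In its F1 part, the catalytic head, 1 of 5 genes was called, Atp5d (−0.19, SE 0.058, adjusted p 0.00871; 0.17 with median scaling), and Atp5a1 and Atp5b, the alpha and beta subunits, changed by −0.16 (SE 0.070, adjusted p 0.0567) and −0.13 (SE 0.067, adjusted p 0.0821). Those 2 values come from the brightest probe of each gene. The other probe of Atp5a1 gave −0.38 (adjusted p 0.000189), and the other probes of Atp5b gave −0.70 and −0.74 (adjusted p 8.54e-07 and 2.25e-07), so that the lack of a call in the F1 part depends on the probe. Of the 12 remaining genes of complex V, 8 were lower and 1 higher, with a median change of −0.22. The lowest were Atp5md (−0.63, SE 0.074), a small subunit of the membrane part, Atp5h (−0.49, SE 0.062), of the stalk that holds the head in place, and Atp5k (−0.46, SE 0.081), known for its part in pairing ATP synthases.

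The c subunit of complex V, which forms the rotating ring, is encoded by 3 genes whose products are known to be alike once the import sequence is removed. Atp5g2 was at 4.59, 5.07 and 5.23 in the lowest, median and highest tumour and at 4.55, 4.57 and 4.54 in normal cerebella. All tumours lay above the normal cerebella, MB2 by the least, and the change was 0.47 (SE 0.075, adjusted p 9.5e-05); its other probe gave 0.67. Atp5g1 was at 3.76, 3.96 and 4.27 in the lowest, median and highest tumour against 4.33, 4.37 and 4.31, and changed by −0.35 (SE 0.070, adjusted p 0.000572). Atp5g3 changed by −0.41 (SE 0.066, adjusted p 8.37e-05). The promoters of the 3 genes are shown because the genes moved in opposite directions; each runs from 250 bases before to 50 bases after the gene start, on the GRCm38.p6 build, from RefSeq. Capitals mark an NRF1 motif (Atp5g2 at bases 209 to 218, Atp5g3 at bases 263 to 272), an AAGGTCA motif of ERR (Atp5g3, bases 199 to 205, on the other strand) and a CACGTG E-box (Atp5g1 at bases 207 to 212, Atp5g3 at bases 13 to 18).
Atp5g1 (chr11:96075582-96075881, minus strand): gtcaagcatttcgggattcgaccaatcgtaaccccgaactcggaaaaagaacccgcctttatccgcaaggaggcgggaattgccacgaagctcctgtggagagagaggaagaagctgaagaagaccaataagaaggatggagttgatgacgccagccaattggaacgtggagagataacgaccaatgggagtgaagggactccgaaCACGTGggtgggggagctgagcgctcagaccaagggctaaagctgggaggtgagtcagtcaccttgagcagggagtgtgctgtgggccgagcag
Atp5g2 (chr15:102670998-102671297, minus strand): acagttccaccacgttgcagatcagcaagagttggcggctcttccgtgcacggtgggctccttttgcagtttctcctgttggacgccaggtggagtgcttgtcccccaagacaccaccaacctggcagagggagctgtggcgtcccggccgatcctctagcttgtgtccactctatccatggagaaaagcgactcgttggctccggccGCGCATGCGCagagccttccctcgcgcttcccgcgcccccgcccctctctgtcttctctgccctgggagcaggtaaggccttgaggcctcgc
Atp5g3 (chr2:73911277-73911576, minus strand): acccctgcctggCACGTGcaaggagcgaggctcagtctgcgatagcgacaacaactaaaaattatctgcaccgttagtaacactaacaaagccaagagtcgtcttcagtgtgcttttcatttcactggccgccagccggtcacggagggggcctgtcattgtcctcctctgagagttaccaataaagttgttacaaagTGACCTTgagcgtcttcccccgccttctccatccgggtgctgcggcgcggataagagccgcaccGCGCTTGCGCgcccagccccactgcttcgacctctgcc

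The promoters of the 3 genes that fell furthest among those measured in every tumour are shown next. Capitals mark both CCGGAAG motifs of ETS factors in Cox8a (bases 246 to 252 and 283 to 289, on the other strand) and, in Ndufs7, a TATAAA box (bases 152 to 157) and an AAGATGGC motif of YY1 (bases 275 to 282). The window of Cox7a1 held none of the 6 motifs searched.
Cox7a1 (chr7:30183921-30184220, plus strand): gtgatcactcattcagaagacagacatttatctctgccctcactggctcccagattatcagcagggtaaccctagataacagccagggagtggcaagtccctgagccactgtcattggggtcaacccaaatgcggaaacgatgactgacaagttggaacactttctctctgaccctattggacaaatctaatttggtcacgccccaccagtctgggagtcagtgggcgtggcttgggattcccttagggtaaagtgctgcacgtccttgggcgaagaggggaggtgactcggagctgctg
Cox8a (chr19:7217567-7217866, minus strand): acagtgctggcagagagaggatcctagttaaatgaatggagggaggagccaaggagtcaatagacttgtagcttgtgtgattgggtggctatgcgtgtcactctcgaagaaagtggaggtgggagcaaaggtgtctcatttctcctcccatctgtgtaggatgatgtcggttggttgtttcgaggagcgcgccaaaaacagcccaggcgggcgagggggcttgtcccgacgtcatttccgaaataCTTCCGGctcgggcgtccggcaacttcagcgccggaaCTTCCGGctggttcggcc
Ndufs7 (chr10:80249199-80249498, plus strand): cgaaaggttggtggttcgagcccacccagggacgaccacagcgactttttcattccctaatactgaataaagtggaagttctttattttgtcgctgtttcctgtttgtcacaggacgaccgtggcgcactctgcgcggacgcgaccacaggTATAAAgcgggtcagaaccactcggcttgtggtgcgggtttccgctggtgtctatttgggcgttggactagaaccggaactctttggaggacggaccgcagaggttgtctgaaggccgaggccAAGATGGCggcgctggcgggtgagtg

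A promoter was found for 66 of the 81 genes with a usable probe. These motifs are those named in the literature for nuclear genes of the respiratory chain, with an E-box and a TATA box beside them, and both strands were searched. The NRF1 motif was in 13 of the 66 promoters (19.7%), against 4.78% of all 27025 promoters and 9.59% of the 10714 promoters of tested genes. CCGGAAG (ETS) was in 16 (24.2%, against 9.12% and 16.2%), AAGATGGC (YY1) in 8 (12.1%, against 2.88% and 4.18%) and AAGGTCA (ERR) in 8 (12.1%, against 4.66% and 3.25%). CACGTG was in 6 (9.09%, against 7.24% and 9.79%) and TATAAA in 8 (12.1%, against 14.2% and 8.35%). The shares are descriptions of letters in the windows.

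Each tumour group on its own was lower than normal cerebellum in a majority of the 79 genes; these 4 comparisons share the 3 normal cerebella. R-type tumours after 1.5 Gy had 48 genes lower and 3 higher (33.4% and 41.2% of all names), with a median change of −0.41, and R-type tumours after 0.2 Gy had 45 lower and 5 higher (33.3% and 40.9%), with a median of −0.29. S-type tumours after 0.2 Gy had 57 lower and 3 higher (33% and 40.9%), with a median of −0.50, and S-type tumours after 0 Gy had 56 lower and 4 higher (33.1% and 41.2%), with a median of −0.45. The median over all tested names was 0.15, 0.14, 0.13 and 0.14 in the 4 comparisons. Array by array, the median of the 79 genes relative to the mean of normal cerebella lay between −0.51 and −0.21 in R-type tumours, between −0.53 and −0.35 in S-type tumours and between −0.04 and 0.03 in normal cerebella. Every tumour was thus below every normal cerebellum. Within the 3 slides that held a normal cerebellum, the median difference between tumours and the normal cerebellum was −0.46 to −0.36.

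**Figure D3:**
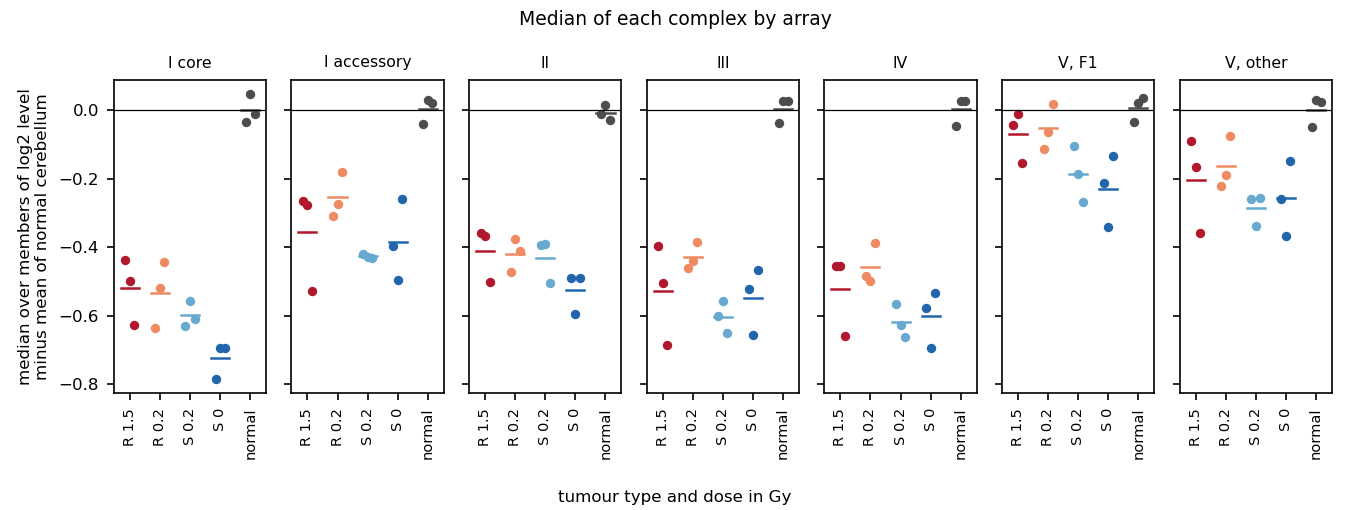
Median over the tested genes of each complex on each array, as log2 level minus the mean of the normal cerebella, by tumour type and dose in Gy, with a bar at the mean of 3 arrays. The tumours lie below the normal cerebella in complexes I to IV, and nearest to them in the F1 part of complex V, where they reach from −0.34 to 0.02.

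The size of the shift depended on the scaling between arrays, and its direction did not. Leaving out the scaling, or scaling by the median, moves the change of every name alike, so the distance from all names stays the same. With signals left unscaled the median change between tumours and normal cerebella was −0.58, with 68 genes lower. It was −0.37 with median scaling, with 48 lower, and −0.71 with quantile normalization, with 73 lower. The share of all names called lower under these scalings is not given, so these counts do not set the genes apart from other names. With median scaling the calls of Sdhd, Atp5d, Cox6b1 and Cox7a2 were lost (adjusted p 0.0903, 0.17, 0.126 and 0.143). Cox7a1, Cox8a, Ndufs7, Cox4i1, Uqcrc2 and Sdhb were called lower, and Cox7a2l, Atp5g2 and Ndufa2 higher, in each of the 26 alternatives run.

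Several probes were tested for 14 of the genes, and their calls between tumours and normal cerebella were opposite for 1. Of Ndufab1, the mitochondrial acyl carrier protein, the brightest probe gave −0.32 (adjusted p 0.000543), and a dim one gave 1.89 (adjusted p 1.21e-07), at −0.03 ± 0.26 in tumours and −1.93 ± 0.11 in normal cerebella (SD, n = 12 and n = 3). The direction of Ndufab1 is therefore uncertain. All 3 probes of Ndufv3 were lower in tumours (−0.88, −0.46 and −0.25), and all 3 of Ndufa12 were higher (0.19, 0.18 and 0.37).

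Between R-type and S-type tumours, the share of genes called higher was near that of all names, and no gene was called lower. Of the 79, 9 were higher in R-type tumours (11.4%) and 0 lower, against 10.9% higher and 10.1% lower over all tested names. With slide as a block, 3 of the 79 were higher, Cox7a1, Atp5d and Atp5g2, and 0 lower. The count of 0 was 9 without scaling and 1 with normexp correction and quantile normalization. Shares of all names called are not given for these alternatives, so their counts are not set against other names. Of the 79 genes, 19 (24.1%) had an unadjusted p under 0.05 in either direction in the fit first given, against 35.5% of all names. The median change was 0.09, against 0.02 over all names. Atp5a1 was not called with its brightest probe (0.14), but its other probe was higher in R-type tumours (0.39, adjusted p 0.00118 in limma). In 2 genes (2.53%), Cox7a1 and Atp5d, every R-type tumour lay above every S-type tumour, which held for 4.96% of all names, and in 0 below, against 4.38%. Arrays of R-type tumours had a signal of 1184 to 1369 at the 75th percentile, and arrays of S-type tumours one of 1240 to 1614, and without scaling the median change was −0.13, with 1 gene higher. Leaving out the scaling moves the change of every name by the same amount. The distance of these genes' median from that of all names is therefore unchanged. The part of the signal difference between the arrays in the small upward shift was not tested. Within the 4 slides, the median difference was −0.02 to 0.22.

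Cox7a1 was the respiratory chain gene with the smallest adjusted p between the types. Its level was −0.55, −0.29 and −0.11 at the lowest, median and highest of 6 R-type tumours, and −1.02, −0.95 and −0.74 at the lowest, median and highest of 6 S-type tumours. The types did not overlap, and the change was 0.61 (SE 0.085, adjusted p 0.000827). It was past the threshold in each of 24 alternatives (adjusted p 0.000297 to 0.0243), and it was 0.20 to 0.79 within the 4 slides. Both types stayed well below the normal cerebella, which were at 1.64 to 1.73.

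The next 7 genes by size of change among those called higher in R-type tumours each lost the call under at least 1 alternative. Atp5d, the delta subunit of the ATP synthase head, was at 3.29 to 3.48 in R-type and 3.04 to 3.24 in S-type tumours and changed by 0.22 (SE 0.052, adjusted p 0.0112), a call lost only without scaling (0.00448, adjusted p 0.966). The 3 genes of the c subunit were called together: Atp5g2 by 0.24 (SE 0.067, adjusted p 0.0252), Atp5g1 by 0.22 (SE 0.063, adjusted p 0.0291) and Atp5g3 by 0.19 (SE 0.059, adjusted p 0.041). Their calls were lost in 10, 12 and 16 of 24 alternatives, and without scaling the changes of Atp5g1 and Atp5g3 were −0.000595 and −0.0317. Ndufv3 changed by 0.28 (SE 0.086, adjusted p 0.0364), and its other 2 probes by 0.62 and 0.56. Uqcr11, a small subunit of complex III, changed by 0.22 (SE 0.070, adjusted p 0.0423) and Cox7c, a small subunit of complex IV, by 0.82 (SE 0.265, adjusted p 0.0471). Leaving out MB1, MB2, MB4, MB5, MB6, MB9, MB10 or MB11 brought the count of 9 to 2 or 3 genes. Of the genes with lower values in R-type tumours, the 4 with the smallest adjusted p were Uqcrb (−0.37, adjusted p 0.122), Uqcrfs1 (−0.33, adjusted p 0.255), Cox7b2 (adjusted p 0.399) and Cox7a2 (−0.04, adjusted p 0.68), none of them called; that of Uqcrb was past the threshold without MB9 (−0.49, adjusted p 0.0483). With 1 array left out, the change of Uqcrb ran from −0.49 to −0.20, the weakest without MB8, and that of Uqcrfs1 from −0.48 to −0.16, without MB8 and without MB11.

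At 0.2 Gy, the dose given to both types, 1 gene was higher in R-type tumours (1.27%, against 1.99% of all names) and 0 lower (against 2.78%), while 14 (17.7%) had an unadjusted p under 0.05, against 21.9% of all names. With slide as a block none of the 79 genes was called. The 1 gene called without that block was again Cox7a1, at −0.14, −0.35 and −0.33 in MB7 to MB9 and −0.96, −0.98 and −0.74 in MB4 to MB6. Its change was 0.62 (SE 0.120, adjusted p 0.0161 in limma). That call did not hold without MB4, MB5, MB7 or MB9 (adjusted p 0.0596, 0.0625, 0.0626 and 0.054), and adjusted p reached 0.138 over all alternatives. Next came Uqcr11 (0.30, adjusted p 0.103) and Cox7c (1.14, adjusted p 0.103), not called. In 38 of the 79 genes (48.1%) the 3 R-type tumours lay above the 3 S-type tumours, against 16.8% of all names, and in 0 below, against 15.7%. The median change was 0.12, against 0.02 over all names. Without scaling, which moves every name by the same amount, it was −0.13.

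Dose within a type left no call. Between S-type tumours after 0.2 and 0 Gy, 0 of the 79 genes passed limma's test in either direction (0% of all names higher and 0.00462% lower), and 3 (3.8%, against 5.75% of all names) had an unadjusted p under 0.05: Cox8b (adjusted p 0.671), Atp5g2 (0.23, SE 0.095, adjusted p 0.83) and Ndufs3, a core subunit of complex I (0.29, SE 0.127, adjusted p 0.848). Without MB2 the change of Atp5g2 was 0.14, and without MB1 that of Ndufs3 was 0.14. Between R-type tumours after 1.5 and 0.2 Gy, 0 passed (0.00462% of all names higher and 0.0646% lower), and 2 (2.53%, against 7.05% of all names) had an unadjusted p under 0.05, Uqcrb (−0.77, SE 0.229, adjusted p 0.59) and Cox8b (adjusted p 0.605). Without MB8 the change of Uqcrb was −1.11 with an adjusted p of 0.00268. Cox7c came next (−0.67, SE 0.374, adjusted p 0.769), and without MB11 its change was −0.05. Cox8b, counted in both dose comparisons, was well above background in 2 of 12 tumours, so most of its values there have only an upper bound.

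The R-type tumours differed among themselves in 3 genes of chromosome 13, which also carries Ptch1. These genes were set apart by their chromosome after their values had been seen. The median SD among 6 R-type tumours was 0.11 over the 77 genes well above background on all 15 arrays, and that of Cox7c was 0.78, of Uqcrb 0.57 and of Uqcrfs1 0.52, which ranked 1, 3 and 4, with Cox6a2 at rank 2. In the S-type tumours the same 3 genes had SDs of 0.11, 0.18 and 0.06. Uqcrfs1 was at 3.97, 2.85 and 3.69 in MB10 to MB12, at 2.81, 3.84 and 3.04 in MB7 to MB9 and between 3.61 and 3.78 in S-type tumours, so that MB7, MB9 and MB11 were low. Uqcrb was at 1.94, 1.83 and 1.71 in MB10 to MB12, at 2.82, 1.91 and 3.06 in MB7 to MB9 and between 2.31 and 2.79 in S-type tumours, so that MB8, MB10, MB11 and MB12 were low. Cox7c was at 1.97, 0.10 and 1.94 in MB10 to MB12, at 1.88, 1.96 and 2.18 in MB7 to MB9, between 0.68 and 0.99 in S-type tumours and at 1.98, 2.13 and 2.16 in normal cerebella. MB11 alone of the R-type tumours was low in Cox7c, and the other 5 lay near the normal cerebella.

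Among the R-type tumours, the nearest genes on the chromosome moved with 2 of these members and, in MB11, with the last. Relative to the mean of the S-type tumours, the median of the 10 tested neighbours of Uqcrfs1 was −0.84 in MB7, −1.11 in MB9 and −0.80 in MB11, where Uqcrfs1 itself was at −0.88, −0.65 and −0.84. In MB10 the neighbours were at −0.51 and Uqcrfs1 at 0.28. In the normal cerebella they parted further, with the neighbours at −1.38, −1.19 and −1.49 and Uqcrfs1 at 0.42, 0.42 and 0.47. The neighbours of Uqcrb were at −0.50, −0.60, −0.45 and −0.41 in MB8, MB10, MB11 and MB12, where Uqcrb was at −0.67, −0.64, −0.76 and −0.87. In the normal cerebella these neighbours were at 0.35 to 0.42, with Uqcrb at 0.55 to 0.65. For Cox7c the neighbours were at −0.82 in MB11, with Cox7c at −0.75. In the other R-type tumours the neighbours of Cox7c were at 0.10 to 0.19 and Cox7c at 1.03 to 1.32, so that the gap between the types in this gene was not shared by its neighbours. Ndufs4, an accessory subunit of complex I farther along the chromosome, lay within −0.01 to 0.29 of the S-type mean in every R-type tumour, and its neighbours within −0.06 to 0.29. Ptch1 itself lay between −1.42 and −0.97 in R-type tumours relative to the S-type mean, and its neighbours between −0.94 and −0.66. In the normal cerebella Ptch1 was likewise below the S-type mean, at −1.29, −1.46 and −1.59, with its neighbours at −0.68, −0.36 and −0.42. The copy number arrays named in the series title were not analysed here, and the part of chromosome 13 copy number in these levels was not tested.

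**Figure D4:**
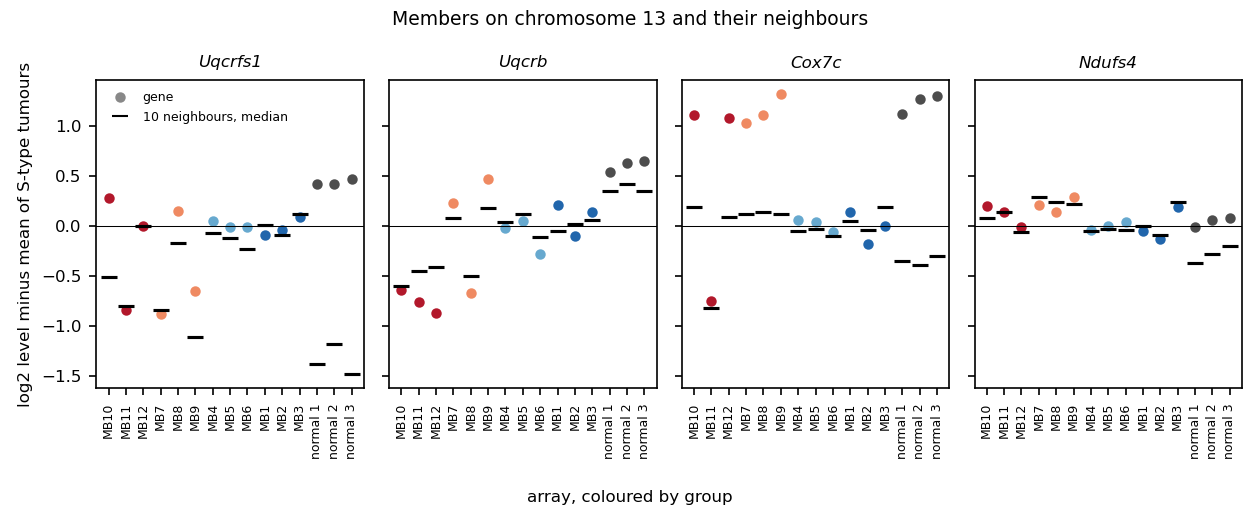
Level of the 4 respiratory chain genes of chromosome 13 on each array (points, coloured by group) and the median of their 10 nearest tested neighbours (black dashes), as log2 level minus the mean of the S-type tumours. MB7, MB9 and MB11 are low in Uqcrfs1, MB8, MB10, MB11 and MB12 in Uqcrb, and MB11 in Cox7c, in the gene and in its neighbours alike, while the S-type tumours are low in Cox7c without their neighbours.

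Other nuclear genes of the mitochondrion, listed by role, moved in both directions. Over all tested names 35.4% were lower and 43.5% higher in tumours, with a median change of 0.14. Of 40 tested assembly factors, 20 were lower and 12 higher in tumours, with a median change of −0.15. Surf1, an assembly factor of complex IV, was at 1.79 ± 0.13 in tumours and 3.02 ± 0.04 in normal cerebella (SD, n = 12 and n = 3), a change of −1.23, whereas Cox16, another, was at 2.42 ± 0.28 against 0.84 ± 0.07, a change of 1.58. Of 13 electron carriers and enzymes of coenzyme Q synthesis, 6 were lower, with Coq8a at −1.32 and Coq3 not well above background in any tumour, and 5 higher, led by Etfa at 0.58. Their median change, 0.12, was near that of all names. Carriers, channels and proteins that organise the inner membrane were higher in 9 of 15 and lower in 4: Apool, of the complex that shapes the cristae, changed by 2.13, Phb2 by 1.88 and Opa1, which fuses inner membranes, by 1.16, whereas Vdac2, a channel of the outer membrane, changed by −0.76 and the ATP carrier Slc25a4 by −0.51.

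In the tricarboxylic acid cycle and the entry of pyruvate, 17 of 25 genes were lower and 2 higher (35.4% and 43.5% of all names). Their median change was −0.51. Ogdh, of the 2-oxoglutarate dehydrogenase complex, changed by −1.56, and Pdk2 and Pdk4, kinases that inhibit pyruvate dehydrogenase, by −3.27 and −1.56. Idh2, the mitochondrial isocitrate dehydrogenase, was higher, at 1.90 ± 0.22 in tumours and −1.13 ± 0.14 in normal cerebella (SD, n = 12 and n = 3), a change of 3.02, and so was Suclg2, of succinyl-CoA synthetase, by 1.16. Among 20 regulators of mitochondrial biogenesis 12 were higher and 7 lower (43.5% and 35.4% of all names). The coactivators Ppargc1a and Ppargc1b, known to switch on respiratory chain genes, were lower by log2 changes of −5.56 (SE 0.528, adjusted p 8.22e-07) and −6.34 (SE 0.556). Their levels were −2.72 ± 1.06 and −3.18 ± 1.2 in tumours, against 2.84 ± 0.11 and 3.15 ± 0.15 in normal cerebella (SD, n = 12 and n = 3). Their partner Esrrg was well above background in 3 of 12 tumours and all 3 normal cerebella. Twnk, the helicase of mitochondrial DNA, was higher by 1.71, Ssbp1, which binds its single strands, by 1.55 and Pprc1, a relative of Ppargc1a, by 1.40. The creatine kinases Ckmt1, of the mitochondrion, and Ckb, of the cytosol, changed by −6.35 and −0.92.

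**Figure D5:**
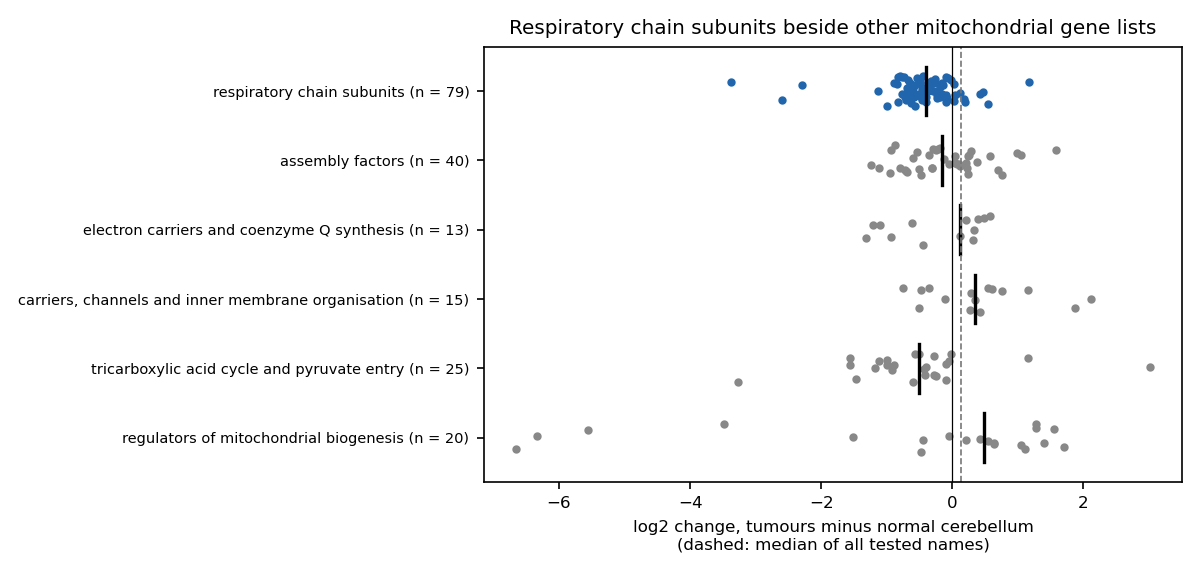
Log2 change in tumours against normal cerebella of the 79 respiratory chain genes (blue) and of 5 other mitochondrial gene lists (grey), 1 point per tested gene, with a black bar at the median of each list and a dashed line at the median of all tested names. The medians are −0.40 for respiratory chain genes and −0.51 for the tricarboxylic acid cycle, against 0.35 for carriers and membrane organisation and 0.48 for regulators.

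Between R-type and S-type tumours the same lists gave 8 higher and 1 lower of 40 assembly factors, 3 and 0 of 15 carriers and membrane proteins, 1 and 0 of 25 genes of the tricarboxylic acid cycle, 0 and 0 of 13 electron carriers and 4 and 1 of 20 regulators, against 10.9% higher and 10.1% lower over all names.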

How the data were processed

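RNA of 12 medulloblastomas and 3 normal cerebella was measured on 15 one-colour (Cy3) arrays, 1 sample each and without pooling. Spot intensities, 1 deposited file an array, had been background-subtracted and detrended, and not scaled across arrays, per the file headers; Agilent Feature Extraction 9.5.1 is named in the submitters' processing notes. Other values were 0 or 1 flags per spot for background, saturation and outliers, also deposited by the authors and used here as filters. The deposited series table held log2 values, and how the authors made it is not given in the sources used here. Against the values computed here, array differences in that table had correlations of 0.99985 to 0.99999, and for every probe MB1 and MB2 added up to 0, so that its log2 scale and direction were settled and its centring is on those 2 arrays for reasons unknown. Its column medians were 0.0506, −0.0506, 0.106, 0.0682, −0.0795, 0.0525, 0.0703, 0.13, 0.127, 0.0908, 0.152 and 0.099 for MB1 to MB12 and 0.00242, 0.082 and 0.0892 for the normal cerebella.

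Levels are log2 processed signals less the 75th percentile of the array; 76 of 41174 probes with outlier flags were left out, which can remove a gene, as it did Ndufs1. Of 41098 probes, 24800 were named through RefSeq accessions with a table of assembly GRCm38.p6, while the array design was annotated on mm9, so no array coordinates are given. A gene took its probe with the highest mean, and limma was run on the 21661 names that 3 or more arrays showed well above background (limma 3.58.1 in R 4.3.3; 5 group means, eBayes, 10 residual and 1.71 prior degrees of freedom, two-sided, Benjamini-Hochberg over all names, threshold 0.05); Python 3.11.15 with pandas 2.3.3 and numpy 2.4.6 made the tables. The fit was tested on simulated data. The alternatives were other scalings and filters, the deposited table, slide as a block and each array left out.

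The genes and lists were chosen with earlier results of these data known. The text names, between tumours and normal cerebella, up to 3 highest and 3 lowest called genes of each complex and all paralogs; between the types the 8 highest and lowest called, or the 4 with the smallest adjusted p where fewer than 4 passed; in the other comparisons the 3 with the smallest adjusted p; and up to 3 highest and lowest called genes of each other list. A gene that this rule names is not reported here. Atp5a1, Atp5b, Ndufab1 and the genes of chromosome 13 were added after their values were seen.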

Additional observations from a re-analysis of the deposited data

Results flagged for a closer look

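Samples that stood apart from the other 5 of their type were looked for in 92 sets of 6 tumours, each with 1 gene or the median of a complex, by Dixon's ratio of the gap to the range against its critical value of 0.625. Chance flags about 1 set in 20 where sets are independent, and 8 were flagged here. These sets share the same arrays, and most of the genes were picked by their changes in these data. The 8 can therefore not be set against that rate. Cox7c was at 0.104 in MB11, against 1.88 to 2.18 in the other R-type tumours. MB12 was flagged as low in 3 genes: Ndufa12 was at 4.53, against 4.81 to 4.93 in the other R-type tumours, Atp5md at 4.13, against 4.32 to 4.42, and Cox7b at 3.29, against 3.55 to 3.66. It was the lowest R-type tumour in many other respiratory chain genes as well. Relative to normal cerebella, the median of the 79 genes was −0.51 in MB12, against −0.38 to −0.21 in the other R-type tumours. Among S-type tumours, MB3 was highest in Atp5md at 4.47, against 4.17 to 4.26, and in the median over all respiratory chain genes at 4.47, against 4.29 to 4.35, Atp5md being the middle gene of that array. Cox6a2 was at −2.52 in MB2, against −4.11 to −3.59, and Ndufs3 was at 2.86 in MB1, against 3.3 to 3.5, in the other S-type tumours.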

How the results depend on the processing

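Values in this paragraph are counts of called genes or median log2 changes of the 79 genes. Shares of all names called are not given for these alternatives or for the fits with 1 array left out below. Whether a count moved more than that of all names was therefore not tested. Without scaling, or with median scaling, the change of every name in a comparison moves by the same amount. Between tumours and normal cerebella the median was −0.58 without scaling, −0.71 with quantile normalization and −0.70 with normexp, which here used median pixel signals and was followed by quantile normalization. Against normal cerebellum, in the same order, the median was −0.71, −0.72 and −0.74 for R-type 1.5 Gy (and −0.31 with median scaling), −0.56, −0.63 and −0.63 for R-type 0.2 Gy and −0.56, −0.70 and −0.70 for S-type 0 Gy, and for S-type 0.2 Gy it was −0.66 with quantile normalization and −0.65 with normexp. R-type 1.5 Gy tumours had 5 genes higher than normal cerebellum with probes averaged, against 3. R-type 0.2 Gy tumours had 2 higher without scaling, against 5, and 69 lower with either quantile normalization or normexp, against 45. Between R-type and S-type tumours, 9 genes were higher; the count was 1 without scaling, 4 with median scaling, 5 with quantile normalization, 2 without the filter, 3 with slide as a block and 2 with only the groups compared. The count lower, 0, was 9 without scaling and 1 with normexp, and the median was −0.13 without scaling, −0.0048 with quantile normalization and 0.0014 with normexp. At 0.2 Gy alone 1 gene was higher, against 0 without scaling, 2 with probes averaged and 0 with slide as a block, and the median was −0.13 without scaling and 0.027 with normexp. The median between doses in S-type tumours was 0.084 without scaling.

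Leaving out 1 array at a time gave, against normal cerebellum, 3 to 5 higher, 51 to 61 lower and medians of −0.44 to −0.38 for all tumours, 3 to 5, 44 to 52 and −0.46 to −0.31 for R-type 1.5 Gy, 3 to 5, 39 to 46 and −0.33 to −0.25 for R-type 0.2 Gy, 3, 53 to 56 and −0.50 to −0.47 for S-type 0.2 Gy, and 2 to 3, 50 to 59 and −0.51 to −0.42 for S-type 0 Gy. Between the types it gave 2 to 13 higher, 0 to 1 lower and medians of 0.069 to 0.12, and at 0.2 Gy 0 to 1, 0 and 0.084 to 0.15. Between doses it gave no gene higher, 0 to 1 lower in R-type tumours (1 without MB8), and medians of −0.049 to 0.033 in S-type and −0.11 to 0.0083 in R-type tumours. The direction turned for Ndufa12 between tumours and normal cerebella (−0.046 with quantile normalization and −0.046 with normexp), for Ndufa4 (0.021 with median scaling, and −0.053 to 0.021 with 1 array left out), and between the types for Atp5g1 (−0.00059) and Atp5g3 (−0.032) without scaling and Cox7a2 (0.029) with median scaling. Fewer samples in a fit, or more names without the filter, change the test itself; the cause of the other shifts was not tested. No paired analysis was possible because the samples carry no replicate numbers shared between groups, which is apart from the shared slides used as a block above. Genes not well above background have only bounds.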
